A study of Mus musculus with 6 samples.

Results

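The galanin GABA neurons with Calcr described here were chosen by their own counts: 231 of the 12580 GABA neurons, and of 30824 barcodes that passed the filters, held at least 5 UMIs of Gal and at least 1 UMI of Calcr. A UMI, or unique molecular identifier, counts 1 transcript caught in a droplet. A GABA neuron was a barcode with at least 500 genes and at most 20% mitochondrial UMIs, at least 4 UMIs of Snap25 and Syt1 together, at least 3 of Gad1, Gad2 and Slc32a1 together, none of Slc17a6 and at most 1 of Mog, Cx3cr1 and Cldn5 together. These counts set the class, so the levels of the 11 genes of the rule are given as a description with no test. The comparison classes were the 512 GABA neurons with at least 5 Gal UMIs and no Calcr UMI, called Calcr-negative galanin neurons below, and the 11837 GABA neurons with fewer than 5 Gal UMIs. The absence of a Calcr UMI does not show that a cell had no Calcr transcript.

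Galanin is a neuropeptide released by GABA neurons of the preoptic region, the front part of the hypothalamus, where galanin neurons are known for roles in parental behaviour and sleep. Calcr encodes the calcitonin receptor, a G protein-coupled receptor that binds calcitonin and, together with a receptor activity-modifying protein (Ramp1, Ramp2 or Ramp3), amylin. Amigo2 is a cell adhesion protein, and Hmx2 and Hmx3 are homeodomain transcription factors of the developing hypothalamus.

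The cells came from the dissected preoptic region of female and male mice, dissociated with protease, sorted for live cells and sequenced on the 10x Chromium droplet platform. Each of 3 female and 3 male libraries was a pool of 3 mice, 60 to 70 days old, that had lived alone for 3 days, with no other treatment and no genotype named. The sample is the pool. Tests between classes measured how far the difference within a pool varied from pool to pool. Tests of female against male measured the spread between pools of the same label. Libraries held 451 to 9845 barcodes, and the median per barcode ran from 2332 UMIs in female library 3 to 6689 in female library 2. Female library 3 kept 65 GABA neurons, none of them in the class, and entered no test of gene levels. Of all barcodes, 963 shared their barcode sequence with a barcode of another library; 8 of the 231 neurons were among them, and none matched a second neuron of the class. Scrublet, a doublet caller, marked 1113 barcodes in all and 2 of the 231, and marked cells stayed in unless stated.

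The 231 neurons held 5 to 333 Gal UMIs, with a median of 20. Calcr was at 1 UMI in 103 of them, at 2 in 53 and at 3 or more in 75. At the edge of the rule, 8 neurons of the class had exactly 5 Gal UMIs, and 8 further GABA neurons had a Calcr UMI and exactly 4 Gal UMIs. Among all GABA neurons 827 had a Calcr UMI, and 596 of these had fewer than 5 Gal UMIs. Most GABA neurons with Calcr were therefore outside the class.

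Sequences just before the start of the genes that define the class, or that were higher in it, are given to show what lies there. The 5 windows come from RefSeq (build GRCm38.p6), each the 250 bases before the annotated start, 5′ to 3′ on the gene's strand. Capitals mark matches, on either strand, to 4 short motifs. Hmx factors bind CAAGTG. The core of a cAMP response element is TGACG. A STAT site reads TTCNNNGAA, where N is any base, and a TATA box reads TATAAA. No match overlapped another.
Gal, chr19:3414545-3414794, minus strand: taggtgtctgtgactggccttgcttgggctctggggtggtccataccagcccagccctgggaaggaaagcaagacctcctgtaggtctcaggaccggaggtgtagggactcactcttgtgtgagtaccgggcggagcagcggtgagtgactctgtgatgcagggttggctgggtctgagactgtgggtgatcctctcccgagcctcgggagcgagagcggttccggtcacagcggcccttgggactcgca
Calcr, chr6:3763624-3763873, minus strand: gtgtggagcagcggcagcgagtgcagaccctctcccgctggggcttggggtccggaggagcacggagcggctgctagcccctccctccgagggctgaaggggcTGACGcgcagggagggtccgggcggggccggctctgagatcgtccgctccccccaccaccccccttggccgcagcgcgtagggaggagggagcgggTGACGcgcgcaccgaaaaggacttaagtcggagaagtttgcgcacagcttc
Amigo2, chr15:97247288-97247537, minus strand: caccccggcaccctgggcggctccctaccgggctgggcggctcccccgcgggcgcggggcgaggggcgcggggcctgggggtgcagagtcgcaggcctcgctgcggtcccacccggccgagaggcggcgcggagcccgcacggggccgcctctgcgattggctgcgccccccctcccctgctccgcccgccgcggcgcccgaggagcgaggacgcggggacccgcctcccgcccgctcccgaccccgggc
Hmx2, chr7:131548507-131548756, plus strand: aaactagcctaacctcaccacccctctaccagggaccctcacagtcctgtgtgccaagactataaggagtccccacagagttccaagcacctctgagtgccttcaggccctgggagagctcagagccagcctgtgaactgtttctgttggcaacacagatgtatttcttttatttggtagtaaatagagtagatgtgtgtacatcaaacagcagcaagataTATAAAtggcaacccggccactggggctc
Brs3, chrX:57042824-57043073, plus strand: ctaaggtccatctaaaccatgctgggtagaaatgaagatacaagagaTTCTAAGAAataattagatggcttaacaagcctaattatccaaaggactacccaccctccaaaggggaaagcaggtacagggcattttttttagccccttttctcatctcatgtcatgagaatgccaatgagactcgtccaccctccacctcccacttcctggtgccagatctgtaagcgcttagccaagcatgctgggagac

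The Gal window held none of the 4 motifs, and neither did the Amigo2 window, which was 84% G or C. The Calcr window belongs to 1 of 2 starts in the table, and it held TGACG at 147 and again at 51 bases before the start. The Hmx2 window, also 1 of 2 starts, held TATAAA from 29 bases before the start. The Brs3 window held a STAT-type match, TTCTAAGAA, 203 bases before the start. Over all 32851 windows of this length, CAAGTG was found in 11.6%, TGACG in 17.8%, TTCNNNGAA in 7.02% and TATAAA in 12.4%, so matches of this kind are common and are descriptions of letters, not of bound sites.

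Calcr was found more often in GABA neurons that held much Gal RNA. A Calcr UMI was present in 4.57% of 9560 GABA neurons with no Gal UMI (95% exact binomial interval 4.16 to 5.01) and in 6.98% of 2277 neurons with 1 to 4. The share was 21.5% of 214 neurons with 5 to 9 Gal UMIs and 34% of 200 with 10 to 19. It reached 41% (34.1 to 48.2) of 200 neurons with 20 to 49, and was 27.1% (19.7 to 35.7) of 129 neurons with 50 or more. Depth moved with these groups: the median cell held 6762 UMIs with no Gal UMI and 13081 with 50 or more. After each cell was thinned to 3000 UMIs, with shallower cells left out, the Calcr share was 2.56%, 2.9%, 11.8%, 16.2%, 18% and 14% in the same order. In oligodendrocytes, which should lack Calcr and which measure the free RNA in the droplets, 0.456% had a Calcr UMI at a median depth of 4664 UMIs, against 11164 in the 231 neurons. Intervals cover counting error only.

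**Figure D1:**
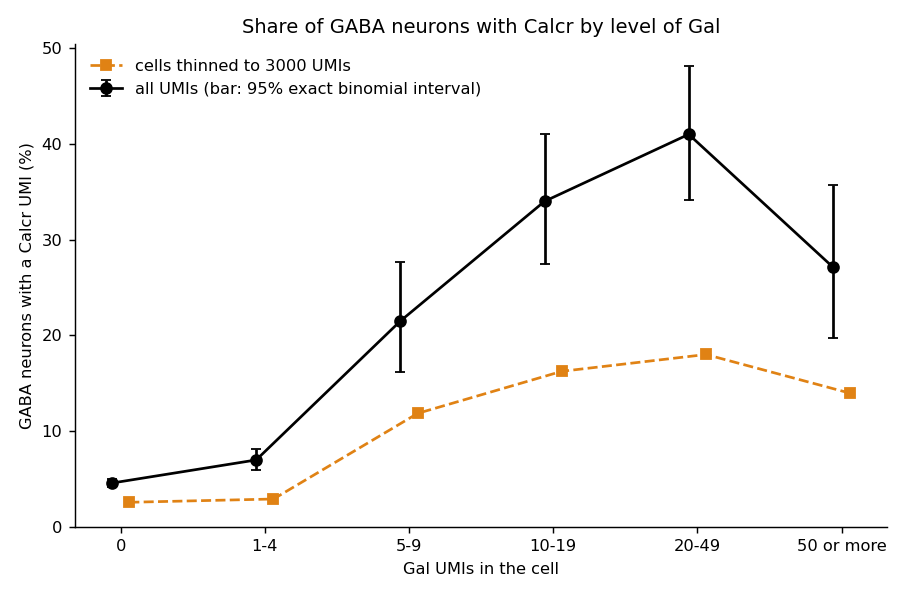
Share of GABA neurons with a Calcr UMI (percent, vertical axis) by the number of Gal UMIs in the cell (horizontal axis), with all UMIs (black, bars are 95% exact binomial intervals) and after thinning each cell to 3000 UMIs (orange). The share rises from 4.57% with no Gal UMI to 41% with 20 to 49, and in thinned cells from 2.56% to 18%.

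By library, the class made up 2.68% of GABA neurons in female library 1 and 2.46% in female library 2, from 56 and 103 neurons. Female library 3 had none of 65, which allows a share of up to 4.62%. The male libraries had 1.09%, 1.07% and 1.85%, from 33, 28 and 11 neurons. The female mean was 1.72% ± 1.49 (SD, n = 3) and the male mean 1.33% ± 0.443 (SD, n = 3). The sexes overlapped, and the difference of 0.381 percentage points had p = 0.8 in an exact two-sided permutation test, where 0.1 is the smallest p that 3 against 3 allows. Without female library 3, both female shares were above all 3 male shares, by 1.24 points on average (exact p = 0.2). Without female library 1 the difference was -0.103 points. Of the galanin neurons, 37.6% and 32.4% had Calcr in female libraries 1 and 2 and 21.4%, 29.5% and 42.3% in male libraries 1, 2 and 3 (exact permutation p = 0.7). After thinning to 3000 UMIs the class shrank to 0.341%, 0.346% and 0 of GABA neurons in the female libraries, and to 0.459%, 0.249% and 0.268% in the male ones, a difference of -0.0968 points. At 6000 UMIs the 2 female libraries with at least 30 GABA neurons of that depth had 2.39% and 1.82% and the male ones 1.24%, 1.12% and 3.39%. Of galanin neurons thinned to 3000 UMIs, 10.4% and 11.6% had Calcr in female libraries 1 and 2 and 22.2% and 18.5% in male libraries 1 and 2, from 5 to 11 neurons each (exact permutation p = 0.333, the smallest that 2 against 2 allows). The sign thus turned at 3000 UMIs for both shares. At 6000 UMIs the difference was 0.184 points in the share of GABA neurons and -1.25 points in that of galanin neurons. The libraries compared were not the same at each depth. Female library 3 entered the share of GABA neurons at 3000 UMIs, with none of 37, and not at 6000. An effect of depth alone was not tested. No sex difference in the number of these neurons was resolved.

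**Figure D2:**
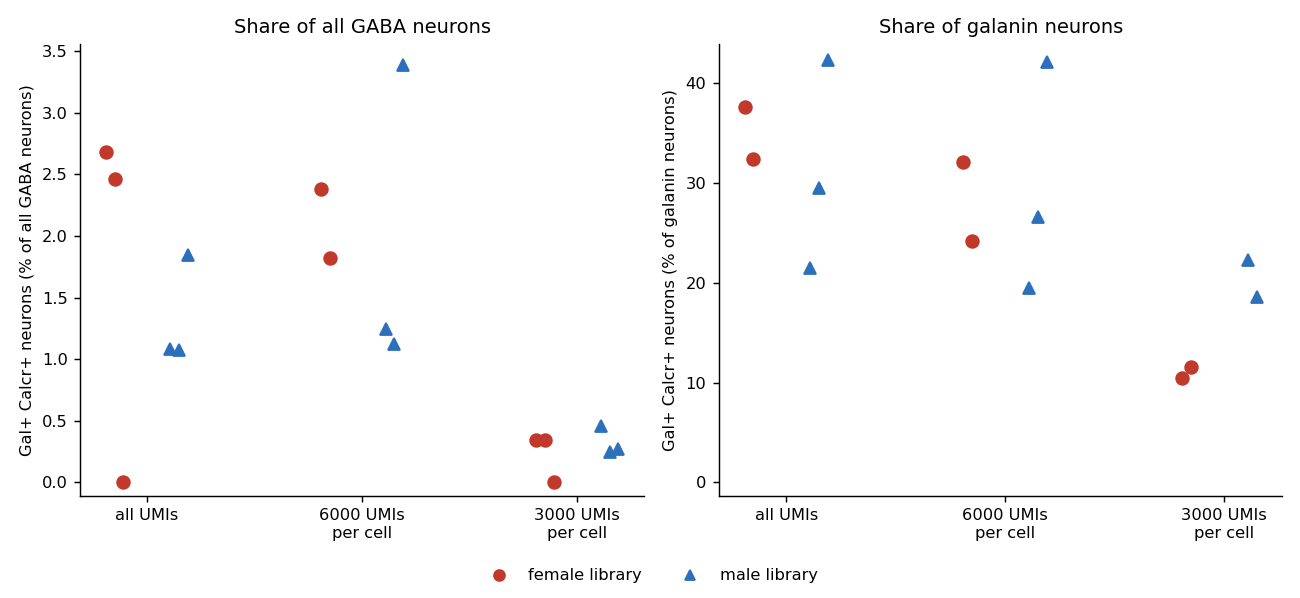
Galanin neurons with Calcr as a percent of all GABA neurons (left) and of galanin neurons (right), 1 point per library, for all UMIs and for cells thinned to 6000 or 3000 UMIs. Female (red circles) and male (blue triangles) libraries overlap with all UMIs in both panels, and libraries with under 30 GABA neurons (left) or 10 galanin neurons (right) at a depth are not drawn.

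The neurons with Calcr were set against Calcr-negative galanin neurons of the same libraries, to ask what goes with Calcr among cells that share galanin. Values are UMIs per 1000000 UMIs of a library's sum over the class (CPM), with the 11 rule genes left out of the total, for the 5 libraries with at least 10 neurons in each class. The edgeR quasi-likelihood test with the library as block tested 7671 genes. Of these 47 (0.613%) were higher in the neurons with Calcr and 109 (1.42%) were lower, at an adjusted p under 0.05. DESeq2 called 41 of the same 156 genes. The count was 72 without female library 2 and 97 without female library 1, the largest sums. Median depth was close, 11164 UMIs in the neurons with Calcr and 10831 in those without.

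Gal itself was similar in both classes, at 3157 ± 755 CPM (SD, n = 5) with Calcr and 2874 ± 246 without. Calcr was at 205 ± 11.3 CPM in the class by its rule.

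The glypican Gpc4, a heparan sulfate proteoglycan of the cell surface, had the largest difference among the named genes that were higher in all 5 libraries. With Calcr it was at 65.6 and 56.6 CPM in female libraries 1 and 2 and at 53.2, 58.0 and 104 CPM in male libraries 1 to 3. Without Calcr the same libraries had 26.4, 24.2, 20.8, 14.6 and 7.78 CPM. Every value with Calcr was above every value without, by 1.42 ± 0.20 in log2 (SE, adjusted p = 3.99e-06).

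Of the other 11 leading genes, 5 encode regulators of transcription or of signalling. Cited1 and Cited2, which bind the coactivators CBP and p300, were at 130 ± 34.6 and 270 ± 85.5 CPM with Calcr, against 66.0 ± 21.3 and 129 ± 14.1 without (log2 1.01 ± 0.13 and 0.85 ± 0.10). The Cited1 call was lost after thinning to 3000 UMIs (adjusted p = 0.0886). Rorb, an orphan nuclear receptor, lay between 245 and 293 CPM with Calcr and between 46.7 and 195 without, with no overlap (log2 0.68 ± 0.11, adjusted p = 3.10e-05). Rasgrp1, an activator of Ras, was at 139 ± 13.7 against 70.6 ± 10.1 CPM, again with no overlap (log2 0.95 ± 0.13). Bcl11a, a zinc finger factor, was higher by 0.73 ± 0.19 (adjusted p = 0.0324), a call that was lost whichever of the 5 libraries was left out, with adjusted p-values of 0.0521 to 0.267.

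At the cell surface, the protocadherin Pcdh11x was at 171 ± 42.3 CPM with Calcr and 73.0 ± 35.1 without (log2 0.93 ± 0.14, adjusted p = 2.66e-05). Lypd1, a GPI-linked protein that binds nicotinic receptors, was higher by 0.90 ± 0.13, and C1ql3, a secreted protein of synapses, by 1.37 ± 0.17. The Lypd1 call was lost after thinning to 3000 UMIs (adjusted p = 0.505). For C1ql3 1 library went the other way: male library 3, with the fewest cells, had 104 CPM with Calcr and 132 without. The remaining genes among the leading 12 were Tesc (0.88), Fam132a (0.83), Anxa5 (0.82) and Gpr165 (0.76), each higher in 5 of 5 libraries. The call of Fam132a ended whichever library was left out (adjusted p of 0.0596 to 0.173). That of Gpr165 ended without any library but male library 2 (0.0541 to 0.699), and that of Tesc without female library 1 (0.0861).

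**Figure D3:**
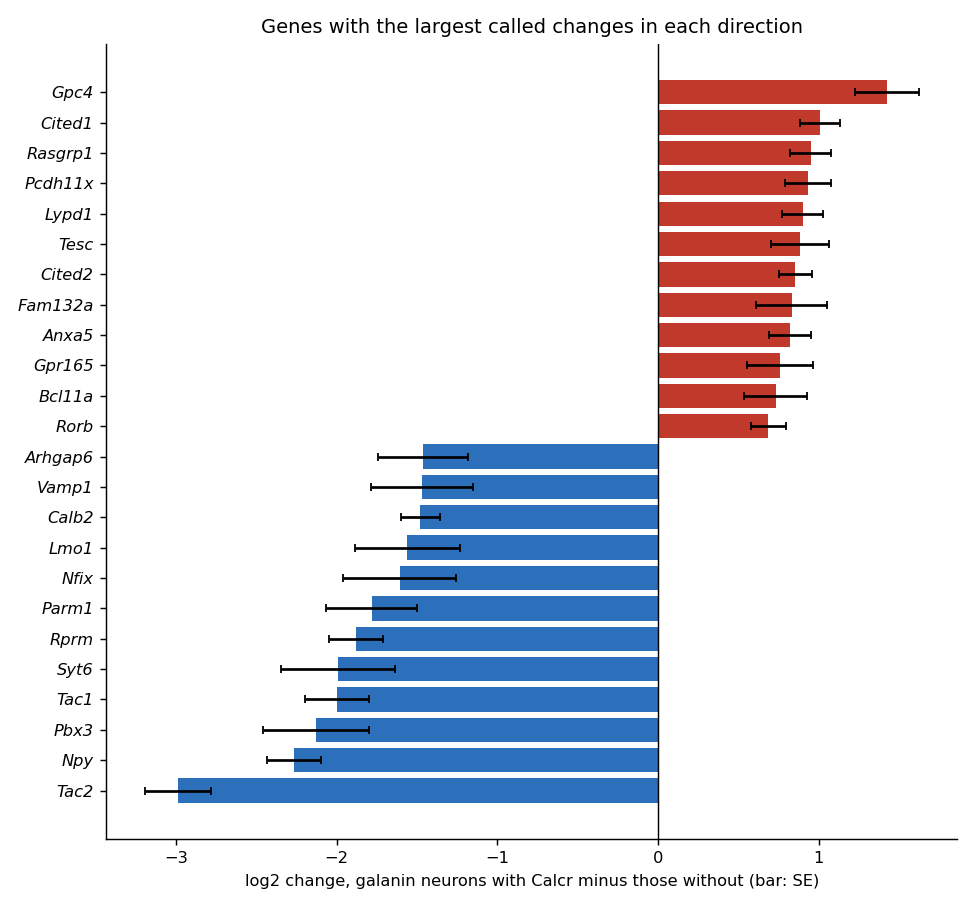
Log2 change (horizontal axis, bars are SE) between galanin neurons with and without Calcr for the 12 genes with the largest rise and the 12 with the largest fall among called genes that went the same way in 5 of 5 libraries. Gpc4 (1.42) leads the higher genes and Tac2 (-2.99) the lower ones.

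Amigo2 and Hmx2, given as markers of this cell class, were higher than in Calcr-negative galanin neurons by a small step. Hmx2 was at 115 and 87.8 CPM in female libraries 1 and 2 and at 78.3, 99.8 and 72.9 CPM in male libraries 1 to 3, against 65.0, 65.2, 54.1, 72.8 and 70.0 CPM without Calcr. The lowest value with Calcr (male library 3) was just above the highest without (male library 2), so the classes did not overlap, by the narrowest margin. The change was 0.53 ± 0.14 in log2 (adjusted p = 0.0351). Amigo2 was at 136, 157, 160, 83.7 and 125 CPM with Calcr and at 96.4, 89.1, 68.6, 103 and 218 CPM without, in the same order of libraries. It was higher in 3 of 5 libraries, the classes overlapped, and the change was 0.55 ± 0.15 (adjusted p = 0.0297). Neither call held throughout. Both were lost with DESeq2, after thinning to 3000 UMIs, with at least 10 Gal UMIs and with no library block. The Amigo2 call was also lost with at least 2 Calcr UMIs. Without female library 1, female library 2 or male library 1 the adjusted p was 0.105, 0.566 and 0.213 for Amigo2 and 0.369, 0.186 and 0.0719 for Hmx2, and without male library 2 it was 0.0505 for Hmx2. Hmx3, the neighbour of Hmx2 on chromosome 7, was at 50.1 ± 17.2 against 36.2 ± 17.3 CPM and was not called (log2 0.42 ± 0.18, adjusted p = 0.316).

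Receptors for hormones and peptides differed gene by gene. Prlr, the prolactin receptor, was at 239, 199, 244, 299 and 135 CPM with Calcr in female libraries 1 and 2 and male libraries 1 to 3, and at 190, 138, 151, 162 and 148 CPM without. It was higher in 4 of 5 libraries, with male library 3 the exception, by 0.55 ± 0.10 in log2 (adjusted p = 0.000434). The Prlr call was lost after thinning to 3000 UMIs and with no library block. Brs3, an orphan receptor of the bombesin family, was at 37.7, 39.4, 59.5, 45.1 and 10.4 CPM against 17.3, 16.4, 11.7, 16.0 and 38.9 CPM. The first 4 libraries had more Brs3 with Calcr and male library 3 had less, where 10.4 CPM is a single UMI (log2 1.35 ± 0.25, adjusted p = 0.000458, and 0.0707 by DESeq2).

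Of the 16 hormone receptors in the list, 8 were tested, 1 (Prlr) was higher, none was lower, and their median change was -0.04 in log2, beside 0.01 over all genes tested. Esr1, the estrogen receptor alpha, was at 13.7 ± 11.4 CPM with Calcr and 35.3 ± 13.1 without, lower in 5 of 5 libraries (log2 -0.90 ± 0.26), and did not pass the test (adjusted p = 0.0552). Pgr, the progesterone receptor, was at 32.6 ± 9.08 and 35.1 ± 9.67 CPM and was not called. The vasopressin receptor Avpr1a fell under the filter on low counts and was not tested: it was at 24.6, 11.5, 9.40, 12.9 and 31.2 CPM with Calcr and at 8.12, 2.61, 6.32, 1.46 and 0 CPM without. Of 41 peptide receptors 5 were tested and 1, Brs3, was called.

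**Figure D4:**
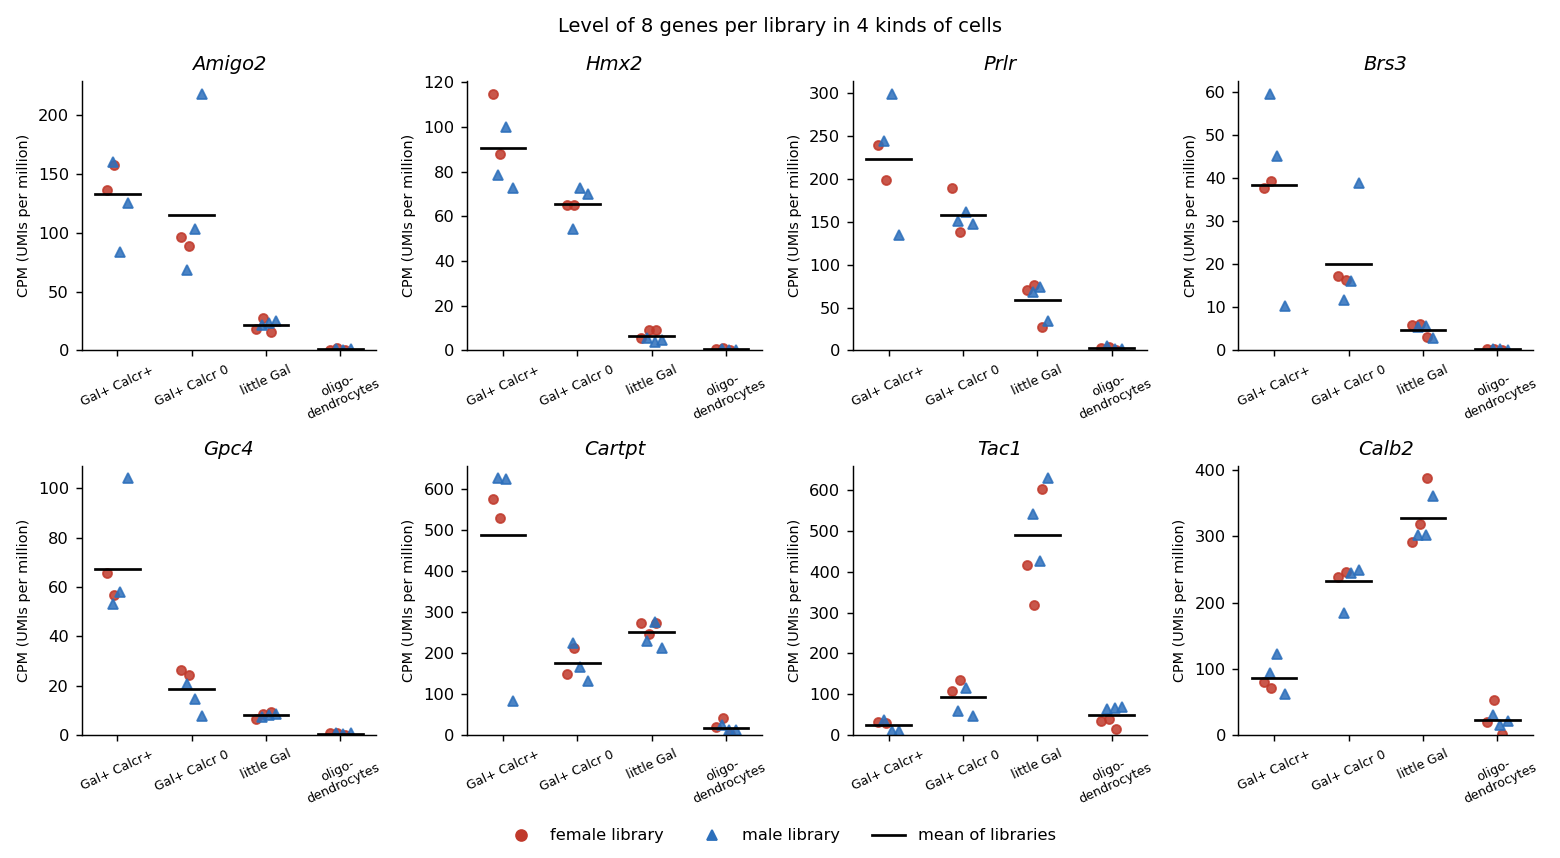
Level of 8 genes in CPM (vertical axes, linear from 0) in galanin neurons with Calcr, without a Calcr UMI, GABA neurons with little Gal, and oligodendrocytes. Each point is a library (red circles female, blue triangles male) and black lines are means. Gpc4 separates the first 2 classes in every library, Brs3 and Cartpt do so in all but male library 3, and Tac1 in neurons with Calcr is not above its level in oligodendrocytes.

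Neuropeptides showed the largest differences in both directions. Of 31 in the list 15 were tested, 3 were higher and 6 lower with Calcr, with a median change of -0.51. Cartpt, the precursor of the CART peptides, was at 576 and 530 CPM in female libraries 1 and 2 and at 626, 625 and 83.3 CPM in male libraries 1 to 3, against 148, 212, 224, 166 and 132 CPM without Calcr. It was several times higher in 4 libraries and lower in male library 3 (log2 1.56 ± 0.10, adjusted p = 1.12e-14, and 0.0549 by DESeq2). Prok2 (log2 1.58) and Vgf (log2 0.86), named after their values were seen, were the other higher ones. Prok2 missed the rule for leading genes, the same direction in every library and a minimum level, although its change was larger than that of Gpc4. Few cells held most of its RNA: 23 of the 230 thinned neurons with Calcr had 90% of the Prok2 UMIs. Its mean per thinned neuron ran from 0.0303 UMIs in male library 1 to 0.714 in male library 2.

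Transcripts of the tachykinins and of neuropeptide Y were scarce. Tac2, the neurokinin B precursor, was at 19.7, 11.5, 12.5, 45.1 and 0 CPM with Calcr and at 117, 152, 98.4, 182 and 132 CPM without, with no overlap (log2 -2.99 ± 0.20, adjusted p = 1.67e-14). Tac1, the substance P precursor, was at 23.8 ± 13.0 against 93.1 ± 38.3 CPM (log2 -2.00 ± 0.20). Oligodendrocytes, cells of lower depth (median 4664 against 11164 UMIs), had 47.9 ± 21.9 CPM (n = 6), above the mean Tac1 level with Calcr. Free RNA can be a larger part of a shallower cell, so these CPM do not give its level in the neurons with Calcr. Npy was at 27.6 ± 22.7 against 137 ± 64.2 CPM (log2 -2.27 ± 0.17), above the 9.13 CPM of oligodendrocytes.

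Nts, neurotensin, was abundant in both classes, at 492 ± 138 CPM with Calcr and 756 ± 99.8 without, lower in 4 of 5 libraries (log2 -0.74 ± 0.09, adjusted p = 5.61e-08). Avp was lower by 1.03 ± 0.24 in log2, but in 3 of 5 libraries only, and the call was lost without female library 2, male library 2 or male library 3 (adjusted p of 0.491, 0.0602 and 0.0559). Cck, named after its value was seen, was lower by 2.52 in log2. It missed the rule for leading genes, the same direction in every library and at least 20 CPM in the higher class. Penk and Sst were not called (log2 -0.51 and 0.33).

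Other lower genes were the calcium-binding protein Calb2, the cell cycle inhibitor Rprm and several transcription factors. Calb2 was at 86.1 ± 23.4 against 233 ± 26.9 CPM (log2 -1.48 ± 0.12, adjusted p = 4.28e-12), and Rprm at 20.8 to 34.5 against 85.6 to 119 CPM (log2 -1.88 ± 0.17), both with no overlap. Pbx3, a homeodomain cofactor, fell by 2.13 on the log2 scale, Nfix by 1.61 and Lmo1 by 1.56. Syt6 (-1.99), Parm1 (-1.78), Vamp1 (-1.47) and Arhgap6 (-1.46) completed the leading 12. The calls of Vamp1 and Arhgap6 were lost without female library 2 (adjusted p of 0.118 and 0.288). Of 69 patterning and fate factors 29 were tested. Hmx2, Rorb, Bcl11a and Mef2c were higher, Nkx2-1, Six3, Nfix and Tcf4 were lower, and the median change was 0.07.

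Over all genes tested, 2.03% were called in either direction, and counts near that share are no result about a group. Of 17 GABA and glycine receptor subunits tested none was called, and of 17 glutamate receptor subunits 1 was, Grm5 (log2 -0.86 ± 0.16, lost without female library 2 at an adjusted p of 0.114). Among 34 ion channels 1 was called, the sodium channel Scn9a (0.42 ± 0.11, lost without female library 1, female library 2 or male library 3 at adjusted p-values of 0.0709, 0.562 and 0.0578). Of 6 tested genes for monoamine, acetylcholine and nitric oxide synthesis none was called: Th, tyrosine hydroxylase, was at 102 ± 41.0 CPM with Calcr and 70.8 ± 44.1 without, and Slc18a2 at 31.6 ± 11.4 and 34.1 ± 11.7. None of 16 early response genes was called, Fos included (681 ± 374 against 509 ± 238 CPM). Larger shares were called among granule genes (37.5%) and adhesion genes (21.6%). Of 16 genes of peptide processing and granules, 2 were higher (Chgb and Syt4) and 4 lower (Chga, Resp18, Cadps2 and Gpx3). The calls of Chga, Chgb and Resp18 were each lost without female library 2 (adjusted p of 0.229, 0.514 and 0.101) and without male library 1 (0.148, 0.242 and 0.136). Of 51 adhesion and guidance genes 5 were higher and 6 lower, with a median of -0.15. Galr1 (log2 -0.40) and Ramp1 (-0.14), the 2 tested members of the galanin and calcitonin family, were not called.

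Marker genes of other cells were measured in the same sums. The 5 oligodendrocyte markers summed to 667 to 1499 CPM with Calcr and 674 to 1898 without, and 1 of the 5, Mbp, was lower (log2 -0.41 ± 0.09, lost without male library 1 at an adjusted p of 0.0685). The 5 astrocyte markers summed to 0 to 47.0 and 15.6 to 45.7 CPM, the 4 microglia markers to 16.1 to 62.4 and 14.6 to 40.6, and the 4 endothelial markers to 12.9 to 40.7 and 0 to 29.4. The 3 markers of glutamate neurons summed to at most 13.1 CPM with Calcr, with Slc17a7 at 0. The part of these RNAs in the results above was not tested.

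Against GABA neurons with little galanin, which span many cell types, the neurons with Calcr differed in 2626 of 10941 genes. Of these 1210 (11.1%) were higher and 1416 (12.9%) lower, and DESeq2 called 1609, all of them among the 2626. Median depth differed, at 11164 UMIs in the neurons with Calcr and 7108 in those with little galanin. In this comparison Hmx3 and Hmx2 had the largest rises. Hmx3 was at 50.1 ± 17.2 CPM against 2.62 ± 1.36 (log2 4.20 ± 0.24, adjusted p = 4.03e-30) and Hmx2 at 90.7 ± 16.9 against 5.75 ± 2.10 (log2 3.94 ± 0.19), each higher in 5 of 5 libraries with no overlap. Amigo2 was at 132 ± 30.9 against 23.3 ± 3.44 CPM (log2 2.58 ± 0.13, adjusted p = 2.48e-34). Amigo2 and Hmx2 thus set the class apart from GABA neurons with little galanin more than from other galanin neurons.

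Th was higher by 3.01 ± 0.18 in log2 and Slc18a2, the vesicular monoamine transporter, by 1.85 ± 0.22. Of 7 tested genes for monoamine, acetylcholine and nitric oxide synthesis 5 were higher (Th, Ddc, Slc18a2, Maoa and Maob) and none lower, with a median of 0.83 beside -0.02 over all genes tested. The CPM of Th varied between libraries, from 31.2 in female library 1 to 135 in male library 2. Gpc4 (log2 3.00), Brs3 (2.90), Cited1 (2.48) and Rorb (1.96), named above, were also higher here. Apoc3 (3.79), an apolipoprotein, Ctxn3 (3.66), Asb4 (2.50), an ankyrin repeat protein, Fam159a (2.40) and Gpc5 (2.25) were further leading genes.

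Among hormone receptors, 3 of 12 tested were higher and 3 lower. Prlr was at 224 ± 60.9 against 64.7 ± 17.0 CPM (log2 1.75 ± 0.10), Avpr1a at 17.9 ± 9.50 against 4.50 ± 1.05 (1.80 ± 0.33), and Nr3c1, the glucocorticoid receptor, was higher by 0.34 ± 0.12 (adjusted p = 0.0239), in 3 of 5 libraries. The Nr3c1 call was lost without female library 1 or female library 2 (adjusted p of 0.339 and 0.242). Nr3c2 (-1.50), Insr (-0.68) and Thra (-0.32) were lower, Insr not without female library 1 or female library 2 (0.0871 and 0.0502). The calls of Nr3c2 and Insr were lost after thinning to 3000 UMIs, for Nr3c2 at an adjusted p of 0.257. Insr was also lost with DESeq2, and Thra with no library block. Esr1 (0.60) and Pgr (0.20) were not called.

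The partners of the calcitonin receptor were low. Ramp1 averaged 14.3 CPM in the neurons with Calcr, 91.6 ± 10.1 in neurons with little galanin (log2 -2.63 ± 0.20, adjusted p = 2.16e-21) and 21.6 ± 3.34 in oligodendrocytes (n = 6). Its mean in the class was thus not above that of oligodendrocytes, which were shallower (median 4664 against 11164 UMIs). The part of free RNA in the Ramp1 level was not tested. Ramp3 was at 1.93 ± 1.76 against 19.5 ± 2.79 CPM (log2 -3.02 ± 0.43). Ramp2 was at 10.6 ± 6.51 and 8.03 ± 0.765 CPM and was not called. Galr1, a galanin receptor, was higher by 1.45 ± 0.35 at a low level, 8.48 ± 7.59 against 4.69 ± 0.646 CPM, in 3 of 5 libraries, a call that was lost with DESeq2 (adjusted p = 0.171). Of the 13 family members outside the rule 5 were tested.

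The largest falls included genes known from striatal neurons and transcription factors of other GABA lineages. Ppp1r1b, or DARPP-32, was at 18.0 ± 17.0 against 332 ± 96.5 CPM (log2 -4.02 ± 0.16) and Arpp21 at 63.4 ± 62.1 against 762 ± 169 (-3.69 ± 0.13). The dopamine receptor Drd1 had 3 UMIs in all over the class, against a mean of 28.8 ± 9.59 CPM in neurons with little galanin. Avp (log2 -4.30), Tac1 (-3.82), Crym (-3.67), Lmo7 (-3.86), Ptk2b (-3.25) and the transcription factors Pou3f4 (-3.68), Lhx6 (-3.59) and Meis2 (-3.48) were also lower in 5 of 5 libraries. Pou3f4 and Lhx6 rest on 5 UMIs each in the class, so the fitted changes of both depend on the small count that the fit adds. Avp, at 35.4 ± 24.6 CPM, was close to the 29.8 ± 29.2 CPM of oligodendrocytes (n = 6). Of 56 patterning and fate factors tested 12 were higher and 31 lower, with a median of -0.91. The higher ones included Dlx1 (1.60) and Isl1 (1.02), both factors of GABA neuron development. The 3 striatal projection neuron markers summed to 275 to 537 CPM over the 6 libraries in neurons with little galanin and to 10.4 to 80.5 CPM in the class. The part of striatal cells in the difference was not tested.

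Over all genes tested in this comparison 11.1% were higher and 12.9% lower. Peptide genes went both ways: of 21 tested 5 were higher and 13 lower, with a median of -1.51. Nts (0.94), Cartpt (1.11), Pnoc (1.72), Vgf and Prok2 were higher, Cartpt in 4 of 5 libraries and not with DESeq2 (adjusted p = 0.223), and Penk (-2.43) and Sst (-2.16) were among the lower ones. Of 20 monoamine and acetylcholine receptors 2 were higher, Adra1b (1.89) and Htr2c, and 12 lower. Glutamate receptor subunits were lower in 12 of 21 and higher in none, with a median of -0.47. Ion channels were lower in 24 and higher in 3 of 51. Of 18 genes of peptide processing and granules 7 were higher, among them Chgb (1.16), Scg2 (0.80) and Resp18 (0.73), and 2 lower. Of 25 early response genes 5 were higher and 11 lower. Fos, at 681 ± 374 against 525 ± 104 CPM, was higher by 0.32 ± 0.10 in 4 of 5 libraries, and the call was lost without female library 1 or female library 2 (adjusted p of 0.132 and 0.0699). Without male library 1 its change was -0.0062.

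Counted cell by cell after thinning to 3000 UMIs, Amigo2 was seen in 29.6% of 230 neurons with Calcr, 19.5% of 507 without and 6% of 10884 with little galanin. In oligodendrocytes it was seen in 0.356%. Without thinning the shares were 52.4%, 38.9%, 13% and 0.528%. Hmx2 was seen in 21.3%, 16%, 1.42% and 0.0821%, and Prlr in 44.8%, 32.9%, 14.4% and 0.985%. Brs3 was in 10.9% of the neurons with Calcr and 4.34% of those without. Esr1 went the other way, with 4.35% and 8.68%. Pgr was seen in 10.9% and 10.5%, and Moxd1, a marker of the sexually dimorphic preoptic nucleus, was in 1.3% and 2.37%. Tac1 was in 5.22% of the neurons with Calcr and 11.2% of those without, and neither share was above the 11.3% of oligodendrocytes. Thinned oligodendrocytes also held Penk in 10.5% and Nts in 4.76% of cells. The thinned shares over cells weight the larger libraries more: the mean of the libraries for Amigo2 was 26.6% ± 5.98 with Calcr and 24.1% ± 11.6 without (SD, n = 5).

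**Figure D5:**
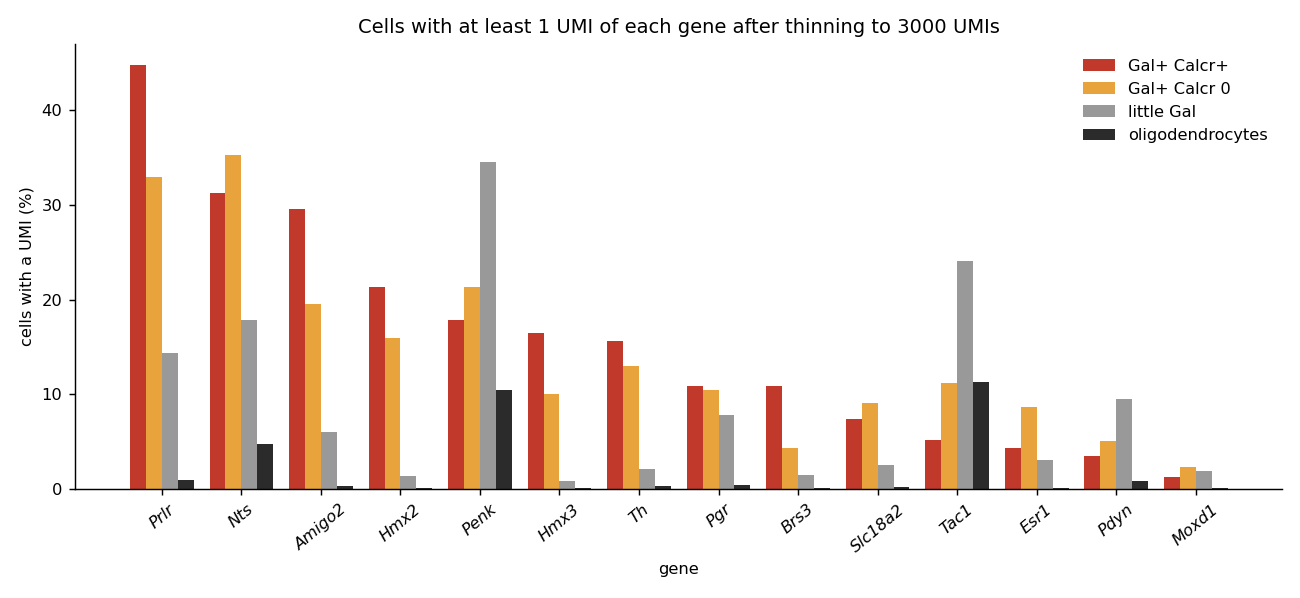
Percent of cells with at least 1 UMI of each gene after thinning to 3000 UMIs, in galanin neurons with Calcr (red), without a Calcr UMI (orange), GABA neurons with little Gal (grey) and oligodendrocytes (black). Amigo2 is in 29.6%, 19.5%, 6% and 0.356%, and Tac1 in the red class (5.22%) is below oligodendrocytes (11.3%).

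Within the class, the neurons were not uniform. In the 230 thinned neurons the ratio of variance to mean, which is 1 for pure counting, had a median of 1.03 over 4862 genes found in at least 10% of them. It was 8.28 for Cartpt and 8.24 for Nts, 5.4 for Penk and 5.18 for Sst. The 23 neurons with the most Cartpt UMIs held 68.2% of all its UMIs, and for Sst 88.5%. The immediate early gene Fos (6.61) and the heat shock gene Hspa1a (9) varied too. Malat1, mitochondrial transcripts, Meg3 and Gm42418 were also among the leading 12, and whether they followed RNA quality was not tested. Hspa1a averaged 0.545 and 0.864 UMIs per thinned neuron in female libraries 1 and 2 and 0.242, 0.0357 and 0 in male libraries 1 to 3, so part of that variation lay between libraries. The same genes varied among Calcr-negative galanin neurons, where the ratio was 4.85 for Cartpt and 13.4 for Nts.

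Female and male were compared in the sums of the neurons with Calcr, 2 libraries against 3. Of 5608 genes 4 (0.0713%) were called. Xist, the RNA of the inactive X chromosome, had 1196 UMIs in the female sums and 0 in the male ones, at least 158-fold higher in females, with the floor of 3 counts over the male libraries. The Y-linked Ddx3y and Eif2s3y had 94 and 67 UMIs in males and 0 in females, at least 78.9-fold and 56.3-fold higher in males. These 3 genes matched the labelled sex of the libraries. Hspa1a was at 146 and 340 CPM in the female libraries and at 87.7, 32.2 and 72.9 CPM in the male ones, with no overlap (log2 2.03 ± 0.37, adjusted p = 0.0338). Its call was lost without female library 2, male library 2 or male library 3, at adjusted p-values of 0.738, 0.102 and 0.829. Oligodendrocytes had far more Hspa1a, 1252 ± 874 CPM (n = 6), and its part in the neurons' values was not tested.

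No hormone receptor was called by sex in the class. Prlr was at 219 ± 28.4 CPM in females (SD, n = 2) and 226 ± 83.5 in males (SD, n = 3), with a difference of -0.14 ± 0.22 in log2 (adjusted p = 0.999). Esr1 and Pgr were too low to be tested. In Calcr-negative galanin neurons 19 of 9295 genes (0.204%) were called by sex, among them Xist, Ddx3y, Eif2s3y, Kdm5d and Uty of the sex chromosomes. The sex difference itself differed between the 2 classes for 4 of 8834 genes (0.0453%), Calb1, Egr4, Nnat and Vip, and DESeq2 called none of the 4.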

How the data were processed

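Members and gene lists were chosen with earlier results of these data known. The authors deposited raw UMI counts per gene and barcode in 1 table for all 6 libraries, and the library of a barcode is the number that ends it, per the labels. Cell Ranger 2.0.0 and build mm10 come from the submitters' processing notes. The annotation, strand and rule for calling cells are each not given in the sources used here. Classes follow rules on UMIs.

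Of 31299 barcodes, 475 were dropped for under 500 genes or over 20% mitochondrial UMIs. UMIs were summed per library and class (5 libraries with at least 10 cells per class) and fitted with edgeR 4.0.16 in R 4.3.3 (TMM, its default filter, quasi-likelihood F test, library as block between classes, Benjamini-Hochberg adjustment over all genes tested). Calls needed an adjusted p under 0.05. The SE is the log2 change over the root of F. The 11 rule genes stayed out of totals and tests. Class differences are the galanin neurons with Calcr minus the comparison class, and sex differences are female minus male. The class with little galanin was not chosen by Calcr, and 596 of its 11837 neurons had a Calcr UMI. In the interaction fit the spread within a library is shared by all libraries. Fits were tested on simulated data.

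Named genes were the up to 12 per direction with the largest called change, the same sign in every library and at least 20 CPM in the higher class, up to 4 of each list by p, and all galanin, calcitonin and hormone receptor genes. For sex they were sex-chromosome genes, up to 5 calls per direction and 4 receptors, and for variation the 12 largest ratios. Some genes that this rule names are not reported here. All 172 such genes matched the GENCODE annotation of mm10 by identifier. Alternatives were DESeq2 1.42.0, other scaling, no filter, thinning, no doublets (Scrublet in scanpy 1.11.5), stricter Gal or Calcr, a minimum of 5 cells, no block and each library left out. Thinning to 6000 UMIs was added after the data were seen. Shares were compared by exact permutation.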

Additional observations from a re-analysis of the deposited data

Results flagged for a closer look

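The difference between galanin neurons with and without Calcr was not the same in the sexes for 4 genes by the interaction term of the edgeR fit (5 libraries). Calb1, a calcium-binding protein, gave -1.04 in log2 (adjusted p = 0.00058), female minus male. With Calcr it was at 333 and 296 CPM in females and 608, 425 and 364 in males, and without Calcr at 473, 265, 278, 271 and 233 CPM. Nnat, an imprinted proteolipid gene, gave -0.80 (adjusted p = 0.02), with 384 and 479 CPM in females and 595, 625 and 291 in males with Calcr. Its log2 differences, with Calcr minus without, were 0.01 and 0.38 in the female libraries and 1.24, 0.84 and 0.69 in the male ones.

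Egr4, an early response gene, gave -3.50 (adjusted p = 0.00016), with 72.0 CPM in male library 1 and 3.22 to 16.4 CPM in the other 4 libraries with Calcr. The log2 differences of Egr4, with Calcr minus without, were -1.31 and -1.98 in the female libraries and 1.68, 0.15 and 1.42 in the male ones. Vip gave -3.13 (adjusted p = 0.000266), with 100 CPM in male library 1 and 6.44 to 13.1 CPM in the other 4. Its differences were -2.25 and -2.07 in the female libraries and 1.52, -1.44 and 0.42 in the male ones. Without male library 1, none of the 4 genes kept its call.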

How the results depend on the processing

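Between galanin neurons with and without Calcr the count of called genes was 156 and became 41 with DESeq2, 237 with no filter on low counts, 42 after thinning to 3000 UMIs, 90 with at least 2 Calcr UMIs, 86 with at least 10 Gal UMIs, 60 with no library block and 72 to 166 when 1 library was left out. Against neurons with little galanin the 2626 calls became 1609 with DESeq2, 1216 after thinning and 1763 to 2736 with 1 library left out. Of the 41 named genes called in the first comparison 15 kept their call under all alternatives run, and of the 89 in the second 70 did. Fos changed sign in the second without male replicate 1 (-0.0062, within -0.0062 to 0.52 over libraries left out). For female against male in neurons with Calcr the 4 calls became 18 with no filter and 3 to 14 with 1 library left out; in Calcr-negative neurons the 19 became 7 with DESeq2, 56 with no filter, 8 after thinning and 7 to 47. The 4 interaction calls became 0 with DESeq2 (36 genes at an unadjusted p under 0.05), 0 after thinning (228), 0 with at least 2 Calcr UMIs (353), 7 with no filter and 3 to 24 with 1 library left out. With the replicate block the sex calls were 13 in neurons with Calcr and 28 in Calcr-negative ones. Whether replicate numbers pair the libraries could not be decided. In Calcr-negative neurons, deviations of same-numbered libraries from the mean of their sex correlated at 0.0184 and 0.102 over genes, with 2 shared numbers. With 2 female libraries these deviations are mirror images of each other, so the correlations cannot tell. The female minus male share of GABA neurons, 0.381 points, was -0.0968 after thinning to 3000 UMIs and -0.103 without female replicate 1, within -0.103 to 1.24 over libraries left out. The share of galanin neurons, 3.92 points, was -9.37 at 3000 UMIs, -1.25 at 6000 UMIs, -0.209 with at least 10 Gal UMIs and -0.904 without male replicate 1, within -0.904 to 9.54. The cause was not tested. Depth limits the Calcr rule: 103 of 231 neurons rest on 1 UMI, and male library 3 gave 11 neurons.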

Other observations

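Detection of other genes was counted by the number of Calcr UMIs in the cell. After thinning to 3000 UMIs, Prlr was seen in 45.1% of the 102 neurons with 1 Calcr UMI, 34% of 53 with 2 and 52% of 75 with 3 or more. Amigo2 was seen in 30.4%, 45.3% and 17.3% (95% exact interval of the last, 9.57 to 27.8), and Hmx3 in 12.7%, 13.2% and 24%. Median depth in these groups was 10554, 11139 and 12001 UMIs. In the 507 galanin neurons with no Calcr UMI, Prlr was seen in 32.9%, Amigo2 in 19.5% and Hmx3 in 10.1%. Their median depth was 10859 UMIs. Amigo2 in neurons with 3 or more Calcr UMIs was thus not above its share in those with none.

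Among the 230 thinned neurons, Cartpt was seen in 44.4% of those with Nts and 24.7% of those without, and in 42.6% of those with Amigo2 and 25.9% of those without. Amigo2 and Hmx2 were seen together in 12 neurons, where independent detection would give 14.5. These counts pool libraries and were not tested.

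Of the 47 genes higher with Calcr than in Calcr-negative galanin neurons, 7 lie on the X chromosome (Brs3, Cited1, Frmpd4, Gpc4, Gpr165, Pcdh11x and Zcchc12). That is 14.9%, beside 4.04% of the 7671 genes tested and 8.26% of the 109 lower genes. The count was made after the genes were seen and was not tested.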
